A study of Homo sapiens with 12 samples.

Results

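DU145 is an established human prostate cancer cell line, first grown from a brain metastasis, that lacks androgen receptor signalling, and DU145-DR is a docetaxel-resistant line selected from it. The comparison of DU145-DR with DU145 rests on 6 of the 12 arrays of the series, 3 of parental and 3 of resistant cells, chosen by the cell line and resistance named in their labels. The other 6 arrays hold the same design in 22Rv1, another prostate cancer line, and enter here for the estimate of spread and where a difference between the lines is tested. Parental cells were grown in RPMI with 10% fetal bovine serum and no drug, and resistant cells in the same medium under docetaxel, at a dose and for a time not given in the sources used here. Resistance and exposure to the drug therefore cannot be told apart, and whether DU145-DR is 1 clone or a pool is not given. Replicates 1 and 2 of each group were hybridized to one Affymetrix array type and replicate 3 to a larger one.

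Docetaxel is a taxane, which binds beta-tubulin, stabilizes microtubules and arrests cells in mitosis. Resistance in cultured cells is known to come with drug efflux by ABC transporters, chiefly P-glycoprotein, with changes in tubulin isotypes, and with a shift from an epithelial to a mesenchymal state. In that shift, transcription factors of the SNAI and ZEB families bind E-box sequences and repress E-cadherin and other junction genes, while matrix and cytoskeletal genes are raised.

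The deposited values are probe-set intensities on a linear scale. Every one is a power of 2 on steps of 0.01 in log2, so equal readings on different arrays come from rounding. The tested change is the difference of mean log2(intensity + 16) between resistant and parental arrays of replicates 1 and 2, given with the standard error from limma, and the third pair, which has no test, is the same difference for replicate 3. Adding 16 understates the change of dim genes. The 5th percentile of the DU145 arrays was 35.8 to 38.6 in replicates 1 and 2 and about 11 (10.9 in resistant cells) in replicate 3, so levels are not comparable between array types, and a reading under its array's 25th percentile (62.2 to 76.1, and 16.8 and 17.8) is near the floor and gives only a bound. In 36 falls both resistant arrays, and in 28 rises both parental arrays, of replicates 1 and 2 were under it. The labels were checked on the arrays of replicate 3: of 204 probe sets at least 4 higher (log2) in DU145 than in 22Rv1, 137 were at least 2 higher in DU145-DR than in 22Rv1. Whether replicates are separate cultures is not stated, so p-values measure the spread between these arrays, which may be technical. Replicate 3 and its array type cannot be told apart.

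DU145-DR cells differed widely from DU145 cells. Of 9713 genes tested with limma, 1069 (11.0%) passed a Benjamini-Hochberg adjusted p of 0.05, 537 higher (5.53%) and 532 lower (5.48%). The change reached 3 on the log2 scale, an 8-fold difference, in 22 rises and 25 falls. The third pair had the same sign for 1009 of the 1069, or 94.4%, against 72.5% of all genes tested, and was of the same sign and at least 1 for 657. For 13 genes it was at least 1 in the opposite direction. With the replicate number as a block 3445 genes passed (35.5%), 1802 higher (18.6%) and 1643 lower (16.9%), and these included all 1069. Counts of lists below are to be read beside these shares, 5.53% and 5.48% without the block. Lists and members were chosen with earlier results of these data known, so an excess over the shares may be built in. With all 3 pairs fitted together over both array types 1499 passed (15.4%), 748 higher (7.7%) and 751 lower (7.73%), including 846 of the 1069. In 351 of the 1069 the call was kept without each of the 8 arrays in turn. Leaving out single arrays gave 489 to 1523 genes, with 489 (179 higher) without DU145 replicate 1, 523 (215 lower) without DU145 replicate 2 and 968 falls without DU145-DR replicate 2. Beside the lists described next, counts of members are given without 1 array where they moved by over 1.5 times and by 2 genes or more. Calls of genes listed by name alone were in part lost without 1 array, as those counts show.

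**Figure D1:**
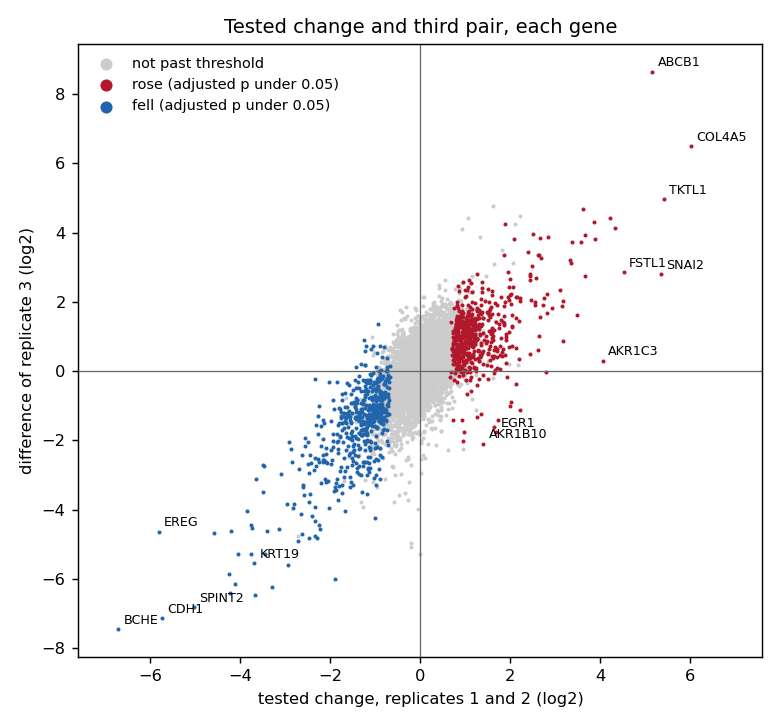
Each point is a gene. The horizontal axis is its tested change in replicates 1 and 2 and the vertical axis the untested difference of replicate 3, both log2 and DU145-DR minus DU145, with genes past the threshold in red (higher) or blue (lower). Most coloured points lie at the lower left and upper right, and AKR1B10 and EGR1 are among the exceptions.

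The 15 largest rises and 15 largest falls were taken among called genes whose groups did not overlap in replicates 1 and 2. All 1069 called genes met this, as did 4082 of the 9713 tested (42.0%), so it left out no call. The third pair also had to have the same sign and be at least 1, so that the 3 pairs of these genes run the same way by choice. This left out AKR1C3, a rise of 4.05 with 0.31 on the third pair and an adjusted p of 0.0863 with the 3 pairs together. The falls held a compact set of epithelial surface genes and the rises matrix, neuronal and signalling genes. The rises were COL4A5, TKTL1, SNAI2, ABCB1, FSTL1, SDC2, SCG5, RTN1, SPOCK1, PTX3, ROBO1, NID2, GHR, GLIPR1 and IGFBP3. The falls were BCHE, EREG, CDH1, SPINT2, LMO3, CDH3, KYNU, CD24, NKX2-1, MTUS1, ADGRG2, PSMB9, ATP10A, SCEL and KRT19. For 19 of the 30 the array holds 1 probe set, and for the other 11 all probe sets of the gene had the same sign. The call was kept without each array in turn for 29, and that of PTX3 was lost without either DU145 replicate 1 or DU145 replicate 2 (adjusted p = 0.0947 and 0.0679).

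**Figure D2:**
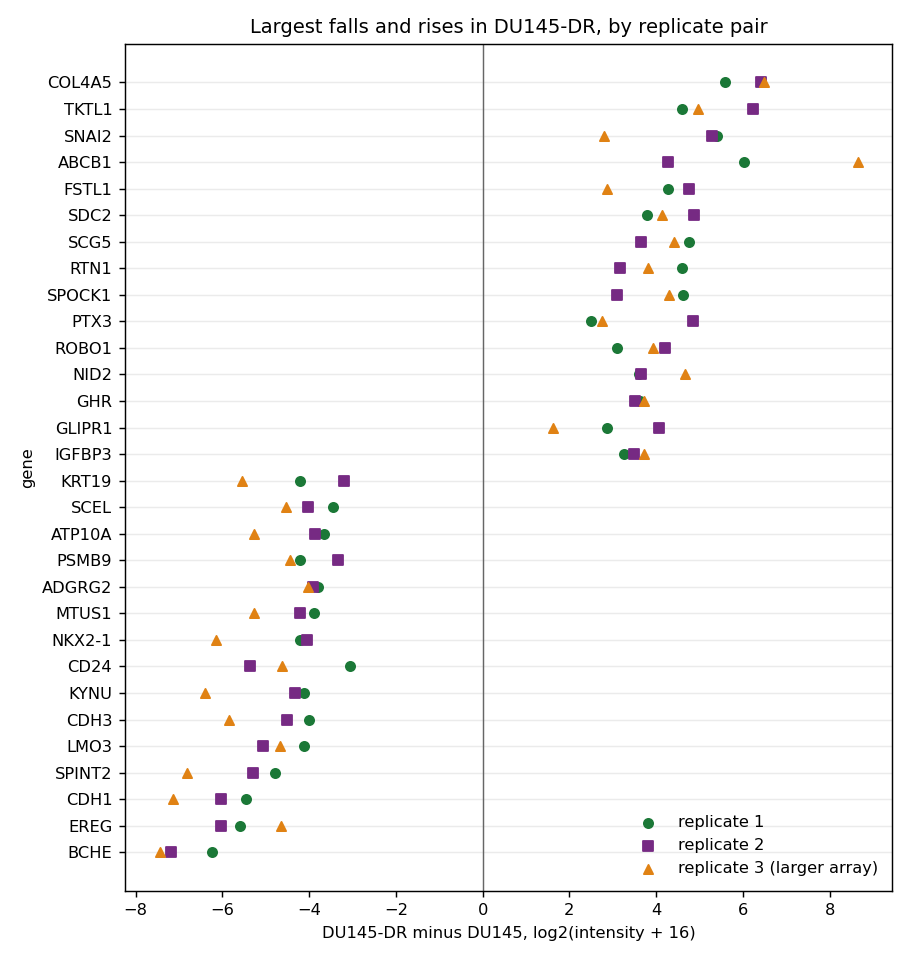
The difference between DU145-DR and DU145 in log2(intensity + 16) is plotted for each of the 3 replicate pairs of the 15 largest falls and 15 largest rises, one gene per row. The genes were chosen for pairs on the same side of 0, and the pairs of ABCB1, PTX3 and CD24 are spread widest.

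ABCB1, which encodes the efflux pump P-glycoprotein, rose in DU145-DR. Its intensity was 78.8 and 68.1 in parental and 6165 and 1618 in resistant replicates 1 and 2, and 18 and 13588 in the 2 arrays of replicate 3. All resistant arrays were far above all parental arrays, but the resistant readings themselves spread widely, with replicate 2 the lowest. The 3 pairs differed by 6.03, 4.28 and 8.64, and the tested change was 5.15 ± 0.50 (adjusted p = 0.000497). RefSeq lists more than 1 start for ABCB1, and the arrays do not tell them apart. The 250 bases before the downstream start (chr7:87600885-87601134, minus strand, GRCh38.p14) are shown because they hold the CCAAT box, searched as CCAAT and its reverse complement ATTGG, both in capitals, at 79 and 238 bases before the start.
ABCB1: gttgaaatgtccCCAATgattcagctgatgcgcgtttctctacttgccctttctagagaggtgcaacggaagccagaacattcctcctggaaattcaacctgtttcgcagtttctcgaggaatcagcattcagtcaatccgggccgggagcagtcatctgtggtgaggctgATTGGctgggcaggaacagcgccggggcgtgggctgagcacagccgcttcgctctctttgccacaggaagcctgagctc
The same search found a match in 37.0% of the genes in the promoter table and in 42.5% of those tested. The 250 bases before the upstream start of ABCB1 held 0 matches. The matches shown are a description of these letters, not of a site.

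Among the other transporters more fell than rose. Of ABC and SLCO transporters, with ABCB1 counted, 2 rose and 5 fell of 28 tested (3 and 9 with the replicate block). The median change was -0.15, and -0.17 on the third pair, against -0.01 and -0.01 over all genes tested. The uptake transporter SLCO1B3, which is known to carry taxanes into cells, fell from 362 to 54.9 in replicate 1, from 584 to 75.6 in replicate 2 and from 132 to 16.8 in replicate 3. No resistant reading reached a parental one on its array type, and the change was -2.56 ± 0.25 (adjusted p = 0.000524). SLCO4A1 changed by -1.28 ± 0.21 (adjusted p = 0.00642) and ABCG2, the breast cancer resistance protein, by -1.26 ± 0.22 (adjusted p = 0.00848), a call lost without DU145 replicate 2. On the third pair SLCO4A1 gave -0.27 and ABCG2 -0.57. Neither passed with the 3 pairs together (adjusted p = 0.0723 and 0.0522). ABCC4, an exporter of nucleotides and prostaglandins, changed by -1.07 ± 0.20 (adjusted p = 0.0132), a call lost without DU145 replicate 2 (adjusted p = 0.0755). ABCC1, the multidrug resistance protein MRP1, gave 0.56 ± 0.31 (adjusted p = 0.322), 0.00673 with the replicate block, and -0.44 on the third pair. ABCA1, a cholesterol exporter, was the other rise, at 0.98 ± 0.23 (adjusted p = 0.0275), but was lower on the third pair (-1.76). Its call was lost without each of the 8 arrays but DU145-DR replicate 1, 22Rv1 replicate 1 and 22Rv1 replicate 2 (adjusted p from 0.052 to 0.144). Leaving out 1 array gave 2 falls of transporters without DU145 replicate 2.

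Genes next to ABCB1 on chromosome 7 read higher along with it in the resistant arrays of replicates 1 and 3, and by less than 0.75 on the log2 scale, or lower, in that of replicate 2. Order along the chromosome was taken from RefSeq annotation of GRCh38.p14. Just beside ABCB1, its paralog ABCB4, a phospholipid transporter of bile canaliculi, read 45.3 and 51.3 in parental and 516 and 56.5 in resistant replicates 1 and 2, and 26.4 and 1144 in the 2 arrays of replicate 3. Resistant arrays of replicates 1 and 3 stood far above the parental ones, and that of replicate 2 by 0.11 on the log2 scale. CROT, a peroxisomal carnitine acyltransferase, went from 471 to 7281 in replicate 1, from 596 to 739 in replicate 2 and from 385 to 7697 in replicate 3. TMEM243, a membrane protein, went from 1235 to 16962 in replicate 1, from 1458 to 2288 in replicate 2 and from 849 to 19349 in replicate 3. In both, the resistant array of replicate 2 lay near the parental arrays and the other 2 more than 10-fold above them.

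Genes that read higher lay between GRM3, a glutamate receptor, on one side of ABCB1 and DBF4, the activating subunit of a replication kinase, on the other. No gene of the window examined beyond GRM3 was tested or bright on the larger array, so an end on that side was not measured. The differences of replicates 1, 2 and 3 were 2.10, 0.03 and 4.43 for GRM3, 2.47, 0.16 and 3.89 for the transcription factor gene DMTF1, 3.32, 0.29 and 3.49 for the noncoding RNA TP53TG1 and 2.07, -0.23 and 4.12 for DBF4. ELAPOR2 and DMTF1-AS1, which are only on the larger array, read 256 and 8903 and 179 and 14165 on the parental and resistant arrays of replicate 3, the 2 largest rises among the genes measured there alone. DMTF1 and DMTF1-AS1 start 40 bases apart on opposite strands, and so do CROT and TP53TG1, 172 bases apart. Between ABCB1 and DBF4, RUNDC3B and SLC25A40 gave -0.49, -0.76 and -0.71 and -0.48, -0.61 and -0.90 and were below 0 in every pair (adjusted p = 0.283 and 0.455, and 0.00872 and 0.00894 with the replicate block).

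Beyond DBF4 most genes read lower. GATAD1, a chromatin protein gene, fell by 1.33 (adjusted p = 0.0203), with -1.36, -1.31 and -1.30 in the 3 pairs, and was the only gene besides ABCB1 of those plotted past the threshold, a call lost without any of DU145 replicate 1, DU145 replicate 2 or else DU145-DR replicate 1 (adjusted p = 0.0507, 0.12 and 0.0568). CDK14 and FZD1 gave -0.60, 0.39 and -0.63 and -0.58, 0.51 and -0.72, and RBM48 gave -0.33, -0.14 and 0.03. SRI, which encodes the calcium-binding protein sorcin, went from 5257 to 1698 in replicate 1, from 6937 to 5043 in replicate 2 and from 4837 to 1009.9 in replicate 3. It was lower on the resistant array of every pair, least in replicate 2, and its change was -1.04 (adjusted p = 0.179, 0.033 with the replicate block). ADAM22 gave -1.48, -0.55 and -2.18 and STEAP1 gave -1.20, -0.09 and -1.69 in the 3 pairs, and CLDN12 and STEAP2, on the larger array only, gave -1.97 and -1.71 there. None of the 7 neighbours higher in replicates 1 and 3 passed the test over replicates 1 and 2 (adjusted p from 0.0949 to 0.383), with the block (0.057 to 0.222) or with the 3 pairs together (0.0695 to 0.173). In the fixed list of 14 tested neighbours 0 rose and 0 fell by limma, with 4 higher and 2 lower at an unadjusted p under 0.05, and with the block 0 rose and 4 fell. Without the resistant array of replicate 2, 7 of these neighbours rose and 3 fell. DNA copy number was not measured, and its part in this pattern was not tested.

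Over all 9713 genes, 13 differed by at least 2 in the same direction in replicates 1 and 3 and by less than 0.75 in replicate 2. Of the 11 higher ones, 7 are these neighbours (GRM3, DMTF1, TMEM243, TP53TG1, CROT, ABCB4 and DBF4), and the others are AOX1, DCLK1, DHRS2 and INHBA. For pairs 1 and 2 without 3 there were 2 such genes, AKR1C3 and PLAGL1, and for pairs 2 and 3 without 1 there were 0. Tested genes of chromosome 7 had a median difference of -0.25, -0.04 and -0.19 in the 3 pairs.

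**Figure D3:**
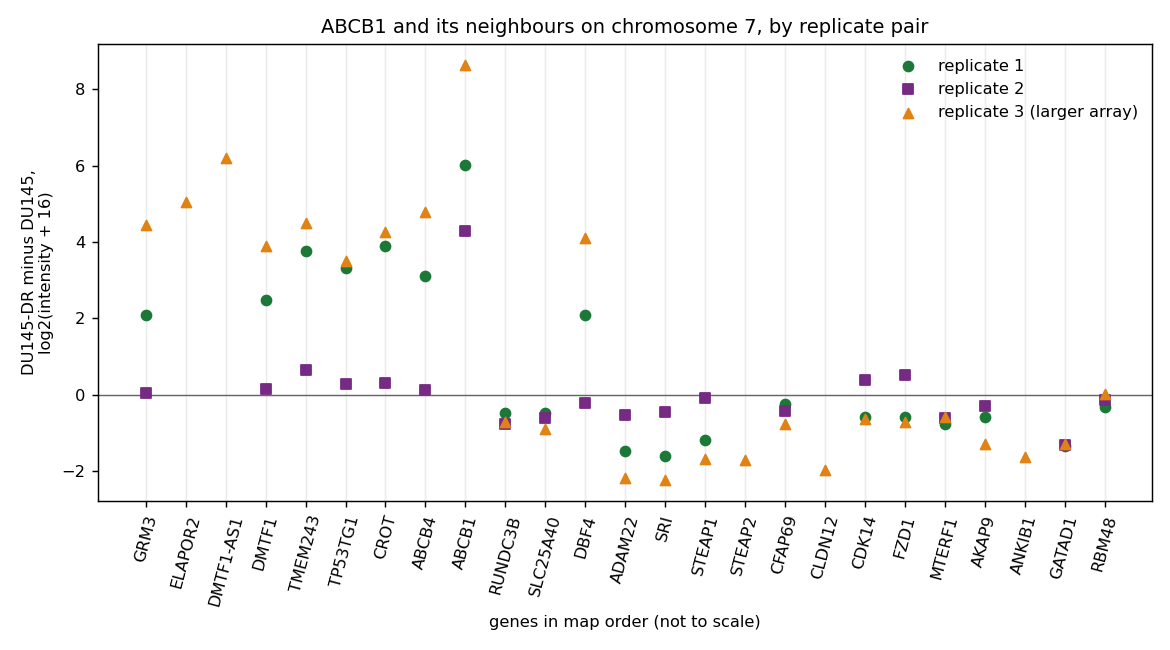
The difference between DU145-DR and DU145 in log2(intensity + 16) is plotted by replicate pair for ABCB1 and neighbouring genes measured on the arrays, in map order and not to scale. Replicates 1 and 3 are high from GRM3 to ABCB1 and again at DBF4, replicate 2 is above 1 at ABCB1 alone, and genes beyond DBF4 lie mostly below 0.

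Some tubulins, the target of docetaxel, rose. Of 15 tubulin genes tested, 3 rose and 0 fell (5 and 2 with the replicate block; 5 higher and 1 lower at an unadjusted p under 0.05). TUBA1A, an alpha-tubulin of neurons and dividing cells, went from 1399 to 6123 in replicate 1, from 1820.3 to 8780.0 in replicate 2 and from 1361 to 3743 in replicate 3. Every resistant array was above every parental array of its type, and the change was 2.19 ± 0.24 (adjusted p = 0.000859). TUBB2A, a beta-tubulin isotype, changed by 1.08 ± 0.19 (adjusted p = 0.00929), a call lost without DU145 replicate 1 (adjusted p = 0.0581). TUBB2B, measured by a probe set prone to cross-hybridization, gave 1.42 ± 0.38 (adjusted p = 0.0472), a call lost without each of the 8 arrays but DU145-DR replicate 1 (adjusted p from 0.0634 to 0.242). TUBB3, the isotype most often linked with taxane resistance, gave 0.41 ± 0.20 (adjusted p = 0.255) and 0.53 on the third pair, and passed with the replicate block (adjusted p = 0.0233). Its probe set is prone to cross-hybridization too. Among 40 microtubule-associated and tubulin-folding genes the only one past the threshold was MTUS1, a microtubule-associated tumour suppressor, while 10 rose and 6 fell with the block. MTUS1 fell from 955 to 49.2 in replicate 1, from 1067 to 42.2 in replicate 2 and from 1351 to 19.4 in replicate 3, a change of -4.06 ± 0.21 (adjusted p = 1.89e-05). With 1 array left out there were 1 rise of tubulins without DU145 replicate 1, 2 falls without DU145-DR replicate 2 and 3 falls of microtubule-associated genes without DU145-DR replicate 2.

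Several cell adhesion genes of epithelia fell in DU145-DR cells. CDH1, which encodes E-cadherin of adherens junctions, read 2369 and 3641 in parental and 38.6 and 40.2 in resistant replicates 1 and 2, and 3281 and 7.46 in the 2 arrays of replicate 3. The resistant readings lay at the floor of both array types, so the change of -5.74 ± 0.23 (adjusted p = 7.74e-06) is a lower limit of the fall. CDH3, P-cadherin, read 3327 and 3327 in parental and 193 and 131 in resistant replicates 1 and 2, and 3214 and 39.7 in the 2 arrays of replicate 3. All resistant arrays were more than 10-fold below the parental ones, and the change was -4.26 ± 0.22 (adjusted p = 1.89e-05). EPCAM, an epithelial adhesion molecule, kept a clear signal, going from 2241 to 402 in replicate 1, from 2759 to 553 in replicate 2 and from 1783 to 236 in replicate 3, a change of -2.36 ± 0.21 (adjusted p = 0.000366). Of 22 adherens junction genes 1 rose and 4 fell (2 and 6 with the replicate block), JUP (plakoglobin) being the other fall, with a median change of -0.10. The rise was that of NECTIN3, at 1.21 ± 0.24 (adjusted p = 0.0157), a call lost without DU145 replicate 1 (adjusted p = 0.0951).

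Junctions of other kinds followed in part. Of 34 genes of tight junctions, desmosomes, gap junctions and polarity, 1 rose and 4 fell (2 and 14 with the replicate block; median change -0.29, and -0.58 on the third pair). GJA1, the gap junction protein connexin 43, read 609 and 609 in parental and 44.9 and 33.6 in resistant replicates 1 and 2, and 369.6 and 18.1 in the 2 arrays of replicate 3. It was low on every resistant array, and the change was -3.51 ± 0.20 (adjusted p = 3.62e-05). PPL (periplakin), PALS1 (a polarity scaffold) and CXADR fell as well, by 2.17 ± 0.22 (adjusted p = 0.000541) for PPL and 1.74 ± 0.19 (adjusted p = 0.000949) for PALS1. JAM3, an adhesion molecule, rose by 1.25 ± 0.21 (adjusted p = 0.00698). Of 6 such genes read only on the larger array and bright there, 4 were at least 1 lower and 0 higher, beside 12.1% lower and 10.2% higher among all 3082 bright genes read only there. No keratin rose: of 18, 4 fell and 0 rose by limma (4 lower and 0 higher at an unadjusted p under 0.05). KRT19 read 3641 and 3444 in parental and 181 and 365 in resistant replicates 1 and 2, and 5257 and 97 in the 2 arrays of replicate 3, with no overlap, and changed by -3.70 ± 0.31 (adjusted p = 0.000274). Single arrays moved these counts, to 1 fall of keratins without DU145 replicate 1 or DU145 replicate 2.

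KRT7 read 5673 and 5955 in parental and 284 and 2304 in resistant replicates 1 and 2, and 5793 and 388 in the 2 arrays of replicate 3. The resistant array of replicate 2 kept much more signal than the others, and its change of -2.80 ± 0.74 (adjusted p = 0.0457) was lost without each of the 8 arrays but DU145-DR replicate 1 and DU145-DR replicate 2 (adjusted p from 0.0617 to 0.185). KRT18 gave -1.01 ± 0.22 (adjusted p = 0.0207), a call lost without any of DU145 replicate 1, DU145 replicate 2 or else DU145-DR replicate 1 (adjusted p = 0.0531, 0.11 and 0.053), and its partner KRT8 gave 0.11 ± 0.19 (adjusted p = 0.867), both from probe sets prone to cross-hybridization. SPINT2, an inhibitor of membrane serine proteases, read 6937 and 10298 in parental and 237 and 247 in resistant replicates 1 and 2, and 4545 and 24.4 in the 2 arrays of replicate 3. It was among the brightest genes on the parental arrays, and its resistant readings were far below the parental ones in all 3 replicates. In replicates 1 and 2 they stayed above the array medians of 199 and 184, and in replicate 3 the reading was under the median of 37.5. Its change was -5.04 ± 0.22 (adjusted p = 1.04e-05). SCEL, a precursor of the cornified envelope, changed by -3.75 ± 0.25 (adjusted p = 8.55e-05).

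Transcription factors of epithelial cells fell more often than they rose. In the list of epithelial transcription and splicing factors and membrane proteases 3 rose and 9 fell of 28 tested (median change -0.13, and -0.63 on the third pair), and 6 of these calls were kept without each array in turn. NKX2-1, a factor of lung and thyroid epithelium, read 1098 and 1261 in parental and 44 and 61.4 in resistant replicates 1 and 2, and 3083 and 27.9 in the 2 arrays of replicate 3. Resistant readings were low on all 3 arrays and the change was -4.13 ± 0.20 (adjusted p = 1.53e-05). SFTA3, which lies next to NKX2-1 and was read on the larger array only, gave 2304 and 11.1 on the parental and resistant arrays of replicate 3, the largest fall there. FOXA1, a pioneer factor of prostate and other epithelia, changed by -2.34 ± 0.19 (adjusted p = 0.000253) and TFAP2A by -2.13 ± 0.24 (adjusted p = 0.00102). KLF5, RBM47, TFAP2C, CDS1 and ELF3 were the other falls, and SOX9, KLF4 and PAX6 the rises. ESRP1, a splicing factor of epithelial cells, read 41.6 to 58.5 on the DU145 and DU145-DR arrays of replicates 1 and 2, near their floor, and gave -0.18 ± 0.21 (adjusted p = 0.756), with -0.88 on the third pair. These counts became 1 rise in this list without DU145 replicate 1 or DU145 replicate 2 and 5 falls without DU145 replicate 1 or DU145 replicate 2.

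Epithelial markers, a list of 11 tested genes, gave 6 falls (CDH1, EPCAM, ELF3, KRT7, KRT18 and KRT19, all in the lists above as well) and 0 rises, with a median change of -1.01, and -2.52 on the third pair. Their summed intensity was 26025 and 30333 in parental and 9215 and 11593 in resistant cells of replicates 1 and 2. In bulk RNA, fewer cells of a type and less RNA per cell cannot be told apart. Of 7 tested fibroblast markers 0 rose and 0 fell, also at an unadjusted p under 0.05, and their summed intensity was 854 and 577 in parental and 840.0 and 633 in resistant cells. Markers of leukocytes (5 tested), endothelium (2), smooth muscle (4) and neuroendocrine cells (3) gave 0 calls by limma as well. At an unadjusted p under 0.05, 1 of them was lower and 0 higher. With the block there was 1 fall each for smooth muscle and neuroendocrine markers. Summed intensity on the 4 arrays ranged from 1364 to 2180.2, 134 to 352, 435 to 733 and 294 to 798. Parental and resistant sums overlapped for leukocytes, endothelium and smooth muscle. The neuroendocrine sum was 798 and 734 in parental and 528 and 294 in resistant cells. Counts with 1 array less included 3 falls of epithelial markers without DU145 replicate 2.

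Among SNAI1, SNAI2, ZEB1 and TWIST1, which repress E-cadherin, SNAI2 passed the test. Its intensity was 52.7 and 71.5 in parental and 2876 and 3421 in resistant replicates 1 and 2, and 167 and 1261 in the 2 arrays of replicate 3. Resistant arrays were above parental arrays in all 3 replicates, least in replicate 3, where the parental reading was higher. SNAI2, also called SLUG, is a zinc finger repressor, and its change was 5.35 ± 0.22 (adjusted p = 7.74e-06). ZEB1 gave 1.17 ± 0.37 (adjusted p = 0.0866) and 1.53 on the third pair. It passed with the replicate block (adjusted p = 0.00199) and with the 3 pairs together (adjusted p = 0.0165). SNAI1 gave 0.37 ± 0.21 (adjusted p = 0.349), passing with the block (0.0287), and -0.01 on the third pair. TWIST1 gave 0.02 ± 0.46 (adjusted p = 0.996) and CDH2, N-cadherin, -0.10 ± 0.18 (adjusted p = 0.863).

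SNAI2 binds E-boxes of the form CAGGTG or its reverse complement CACCTG. The 250 bases before the start of EREG (chr4:74364895-74365144, plus strand) and FOXA1 (chr14:37595250-37595499, minus strand) are shown because both genes fell and each holds 1 such E-box, in capitals, at 155 and 122 bases before the start (RefSeq, GRCh38.p14).
EREG: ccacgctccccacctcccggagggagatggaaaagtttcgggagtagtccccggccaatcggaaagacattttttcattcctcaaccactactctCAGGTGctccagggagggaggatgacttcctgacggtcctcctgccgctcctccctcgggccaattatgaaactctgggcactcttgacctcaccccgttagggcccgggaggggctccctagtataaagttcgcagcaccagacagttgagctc
FOXA1: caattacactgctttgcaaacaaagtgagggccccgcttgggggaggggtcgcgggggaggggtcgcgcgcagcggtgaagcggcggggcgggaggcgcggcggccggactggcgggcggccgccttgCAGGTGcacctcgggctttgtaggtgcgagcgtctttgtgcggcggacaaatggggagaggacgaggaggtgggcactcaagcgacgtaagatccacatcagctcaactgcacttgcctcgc
An E-box of this form was in 20.6% of the 27305 genes in the promoter table, counting every start listed for a gene, and in 21.1% of the 7894 tested genes found there. It was in 17.8% of 438 genes that rose and in 28.7% of 421 that fell. These shares are a description, with no test. CDH1, CDH3, EPCAM, KRT19 and SPINT2 had no entry in the promoter table and were not searched. Whether SNAI2 acts on EREG or FOXA1 was not tested.

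Part of the mesenchymal genes rose. By limma without the block vimentin and N-cadherin did not pass, and with it vimentin did. Of 39 tested, 12 rose and 0 fell by limma without the block (16 and 3 with the replicate block; 15 higher and 2 lower at an unadjusted p under 0.05; median change 0.21, and -0.05 on the third pair), and 7 of the calls were kept without each array. FSTL1, a secreted glycoprotein, read 89.9 and 92.4 in parental and 2034 and 2916 in resistant replicates 1 and 2, and 362 and 2721 in the 2 arrays of replicate 3. S100A4, a calcium-binding protein of motile cells, read 508 and 512 in parental and 1574 and 8539.9 in resistant replicates 1 and 2, and 484 and 2353 in the 2 arrays of replicate 3. FSTL1 was higher on every resistant array, while S100A4 stood highest on the resistant array of replicate 2. The change was 4.52 ± 0.21 (adjusted p = 1.29e-05) for FSTL1 and 2.81 ± 0.68 (adjusted p = 0.0326) for S100A4, the latter lost without either DU145 replicate 1 or DU145 replicate 2 (adjusted p = 0.15 and 0.147). SPOCK1, LEF1, CCN2, TAGLN, MSX1, DAB2, TCF4, TPM1 and TGFBI also rose. VIM, the intermediate filament vimentin, was already among the brightest genes in parental cells. It went from 13400.5 to 22694 in replicate 1, from 16962 to 24492 in replicate 2 and from 13400.5 to 22227 in replicate 3. Its change was 0.64 ± 0.21 (adjusted p = 0.0947). VIM passed with the block (adjusted p = 0.0177) and with the 3 pairs together (adjusted p = 0.0339). The counts shifted to 7 rises of mesenchymal genes without DU145 replicate 1 and 3 falls without DU145-DR replicate 2.

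Basement membrane collagen genes rose in part. Type IV collagen chains are encoded by genes that lie head to head in 3 pairs, and in RefSeq the starts of COL4A5 and COL4A6 are 380 bases apart, those of COL4A2 and COL4A1 127 and those of COL4A4 and COL4A3 419. COL4A5 read 34.3 and 36.3 in parental and 2419 and 4451 in resistant replicates 1 and 2, and 18.4 and 3083 in the 2 arrays of replicate 3. COL4A6 read 39.9 and 52.3 in parental and 223 and 792 in resistant replicates 1 and 2, and 13.5 and 419 in the 2 arrays of replicate 3. Both were near the floor on the parental arrays of replicates 1 and 2 and higher on every resistant array. The change was 6.01 ± 0.29 (adjusted p = 1.52e-05) for COL4A5 and 2.83 ± 0.47 (adjusted p = 0.00719) for COL4A6, the latter lost without DU145 replicate 1 (adjusted p = 0.063).

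The 250 bases before each of these facing starts are shown because the 2 stretches overlap and both genes rose (RefSeq, GRCh38.p14; COL4A5 at chrX:108439588-108439837, plus strand, and COL4A6 at chrX:108439459-108439708, minus strand). No motif was marked.
COL4A5: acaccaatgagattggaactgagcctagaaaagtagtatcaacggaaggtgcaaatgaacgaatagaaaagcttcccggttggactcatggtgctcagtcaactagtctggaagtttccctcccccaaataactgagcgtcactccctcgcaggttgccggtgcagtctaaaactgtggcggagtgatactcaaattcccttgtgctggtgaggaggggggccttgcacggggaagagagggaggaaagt
COL4A6: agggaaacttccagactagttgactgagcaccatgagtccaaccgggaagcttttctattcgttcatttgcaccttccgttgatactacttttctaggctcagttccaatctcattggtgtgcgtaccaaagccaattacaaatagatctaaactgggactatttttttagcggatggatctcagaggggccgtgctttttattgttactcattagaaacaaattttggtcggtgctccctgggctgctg
The other chains, looked up after the values of COL4A5 were seen, gave 2.44 ± 0.23 (adjusted p = 0.0004) for COL4A1 and 1.26 ± 0.25 (adjusted p = 0.0142) for COL4A2, the latter lost without either DU145 replicate 1 or DU145 replicate 2 (adjusted p = 0.0893 and 0.0551). COL4A3 gave -0.08 ± 0.21 (adjusted p = 0.936) and COL4A4 -1.04 ± 0.21 (adjusted p = 0.017), the latter lost without DU145 replicate 2 (adjusted p = 0.0939).

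Other matrix genes rose more often than they fell. Of collagens and cross-linking enzymes 8 rose and 2 fell of 38 tested (12 and 5 with the replicate block) and of proteoglycans and matrix glycoproteins 8 rose and 2 fell of 38 tested (9 and 6 with the replicate block), with medians of 0.10 and 0.07. LOX, which cross-links collagen and elastin, went from 208 to 1783 in replicate 1, from 292 to 1698 in replicate 2 and from 113 to 541 in replicate 3. COL5A1, a chain that regulates fibril diameter, went from 108 to 749.6 in replicate 1, from 78.2 to 576 in replicate 2 and from 14.4 to 298 in replicate 3. SDC2, a cell-surface heparan sulfate proteoglycan, went from 36.8 to 709 in replicate 1, from 35 to 1468 in replicate 2 and from 16.3 to 549 in replicate 3. In these 3 genes each resistant array was above each parental array of its type. Changes were 2.74 ± 0.21 (adjusted p = 0.000159), 2.64 ± 0.22 (adjusted p = 0.000253) and 4.32 ± 0.31 (adjusted p = 0.000129) in that order. SPOCK1, a testican proteoglycan, rose by 3.86 ± 0.53 (adjusted p = 0.00293) and CCN2, connective tissue growth factor, by 2.47 ± 0.20 (adjusted p = 0.000253). CCN5, of the same family as CCN2, fell by 2.35 ± 0.28 (adjusted p = 0.00129). Leaving single arrays out changed these counts to 4 rises of collagens without DU145 replicate 1, 0 falls without DU145 replicate 2, 4 rises of proteoglycans without DU145 replicate 1, 5 rises without DU145 replicate 2 and 4 falls without DU145-DR replicate 2.

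Of integrins and laminins 4 rose and 2 fell of 33 tested (7 and 5 with the replicate block). NID2, a linker of laminin and collagen IV, went from 101 to 1409 in replicate 1, from 158 to 2149.8 in replicate 2 and from 73.5 to 2272 in replicate 3, with no overlap between the groups, a change of 3.62 ± 0.27 (adjusted p = 0.000131). ITGB5 rose by 1.62 ± 0.23 (adjusted p = 0.00329) and LAMB3, a chain of epithelial laminin, fell by 1.46 ± 0.23 (adjusted p = 0.00588). ITGA2, a collagen receptor subunit, gave 1.33 ± 0.27 (adjusted p = 0.016), a call lost without either DU145 replicate 1 or DU145 replicate 2 (adjusted p = 0.0806 and 0.0851). Fits on 1 array fewer gave 2 rises of integrins and laminins without DU145 replicate 1.

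Genes of pericellular proteolysis moved both ways. Of extracellular proteases 6 rose and 4 fell of 44 tested (10 and 8 with the replicate block), and of serpins and other inhibitors 4 rose and 7 fell of 35 tested. F3, tissue factor, went from 2320.2 to 307 in replicate 1, from 3444 to 185 in replicate 2 and from 1089.9 to 150.1 in replicate 3, and PLAU, CTSH and ADAM8 fell too. ADAM12 and ADAM19, membrane metalloproteases, rose by 2.44 ± 0.22 (adjusted p = 0.000366) and 1.96 ± 0.18 (adjusted p = 0.000376), and HTRA1, a secreted serine protease, by 1.90 ± 0.20 (adjusted p = 0.000829). The change of F3 was -3.48 ± 0.28 (adjusted p = 0.000249), with no resistant reading near a parental one. SERPINB9, the inhibitor of granzyme B, changed by -3.41 ± 0.26 (adjusted p = 0.000151) and SPINK2 by -2.31 ± 0.25 (adjusted p = 0.000901). SERPINA1, alpha-1-antitrypsin, gave -2.30 ± 0.43 (adjusted p = 0.012), a call lost without either DU145 replicate 1 or DU145 replicate 2 (adjusted p = 0.0867 and 0.0624). Other SERPINA1 probe sets gave 0.03 and -0.10. Leaving out 1 array gave 2 falls of proteases without DU145 replicate 1, 1 rise of inhibitors without DU145 replicate 1 or DU145 replicate 2 and 4 falls without DU145 replicate 1.

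Within the ERBB family a ligand and a receptor fell. EREG, which encodes epiregulin, a ligand of EGFR and ERBB4, read 2062 and 3104 in parental and 27.1 and 31.3 in resistant replicates 1 and 2, and 653 and 10.9 in the 2 arrays of replicate 3. Resistant readings were at the floor of both array types, and the change of -5.82 ± 0.22 (adjusted p = 7.74e-06) is a lower limit of the fall. ERBB3 went from 474 to 56.5 in replicate 1, from 343 to 63.1 in replicate 2 and from 209 to 13.4 in replicate 3, a change of -2.47 ± 0.23 (adjusted p = 0.000409). EGFR gave -0.96 ± 0.22 (adjusted p = 0.0271) and 0.53 on the third pair, a call lost without each of the 8 arrays but DU145-DR replicate 1 (adjusted p from 0.0556 to 0.135), and ERBB2 gave -0.41 ± 0.21 (adjusted p = 0.286), 0.0183 with the replicate block. HBEGF, another ligand, was higher at 1.15 ± 0.22 (adjusted p = 0.0125), a call lost without DU145 replicate 1 (adjusted p = 0.0691). Over the list 1 rose and 4 fell of 14 tested (2 and 5 with the replicate block). With 1 array left out there were 2 falls in this family without DU145 replicate 1.

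In the insulin-like growth factor axis IGFBP3, a secreted binding protein, and IRS1, the docking protein below the receptor, went in opposite directions. IGFBP3 read 1098 and 1176 in parental and 10661 and 13308 in resistant replicates 1 and 2, and 109 and 1641 in the 2 arrays of replicate 3. IRS1 read 1075 and 1722 in parental and 162 and 282 in resistant replicates 1 and 2, and 519 and 29.2 in the 2 arrays of replicate 3. Groups did not overlap in either gene. Changes were 3.37 ± 0.21 (adjusted p = 5.13e-05) and -2.58 ± 0.30 (adjusted p = 0.00122), and no other of 19 tested genes of this list passed (3 and 3 with the replicate block). Each direction was 5.26% of the list, near the 5.53% and 5.48% of all genes tested. GHR, the growth hormone receptor, rose from 56.5 to 879 in replicate 1, from 39.4 to 613 in replicate 2 and from 11.1 to 343 in replicate 3, a change of 3.57 ± 0.25 (adjusted p = 0.000105). Among 58 other receptor tyrosine kinase and ligand genes 4 rose and 3 fell (5 and 10 with the replicate block). These are 6.90% and 5.17%, near the 5.53% and 5.48% of all genes tested. ROR1 changed by -1.59 ± 0.19 (adjusted p = 0.00142), but by -0.40 on the third pair, and did not pass with the 3 pairs together (adjusted p = 0.0604). FGF2, PDGFA, PDGFC and EFNB2 were the rises. Of these, FGF2 gave 1.39 ± 0.35 (adjusted p = 0.0384) and was lost without each of the 8 arrays but DU145-DR replicate 1. Single arrays moved these counts, to 3 rises in the IGF list without DU145-DR replicate 1, 0 rises of receptor kinases and ligands without DU145 replicate 1, 1 rise without DU145 replicate 2 and 1 fall without DU145 replicate 1 or DU145 replicate 2.

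Genes of TGF-beta and BMP signalling rose more often than they fell, inhibitors of the pathway among them: 11 rose and 1 fell of 52 tested (16 and 6 with the replicate block). SMAD7, the inhibitory SMAD, went from 85 to 685 in replicate 1, from 103 to 724 in replicate 2 and from 58.5 to 265 in replicate 3. BAMBI, a decoy receptor, went from 176 to 1468 in replicate 1, from 127 to 714 in replicate 2 and from 93.1 to 307 in replicate 3. Both were higher on every resistant array and rose by 2.71 ± 0.19 (adjusted p = 0.0001) and 2.65 ± 0.34 (adjusted p = 0.00212). ID2, a target of BMP signalling, gave 2.14 ± 0.46 (adjusted p = 0.0209), a call lost without either DU145 replicate 1 or DU145 replicate 2 (adjusted p = 0.122 and 0.0969), and SKIL, LTBP1, ID3, LTBP3, SMAD4, ACVR1, TGFBI and FSTL1 rose too. The ligand TGFB2 was the 1 fall. These counts became 6 rises in this pathway without DU145 replicate 1.

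A minority of Notch genes rose: of 22 tested, 5 rose and 0 fell by limma without the block (6 and 2 with the replicate block, 3 and 2 with the 3 pairs, 5 and 2 at an unadjusted p under 0.05; median change 0.07, and 0.04 on the third pair). NOTCH2, a receptor, went from 530.1 to 2320.2 in replicate 1, from 771 to 2856 in replicate 2 and from 431 to 2048 in replicate 3, and JAG1, a ligand, changed by 1.53 ± 0.23 (adjusted p = 0.00527). HEY1, a target, changed by 2.45 ± 0.26 (adjusted p = 0.000809) and 2.74 on the third pair. HES1, another target, changed by 2.13 ± 0.20 (adjusted p = 0.0004) but by -0.37 on the third pair. In the Wnt list 4 rose and 4 fell of 37 tested (11 and 5 with the replicate block). LEF1, a transcription factor of this pathway, went from 57.7 to 537 in replicate 1, from 63.1 to 410.1 in replicate 2 and from 13.8 to 271 in replicate 3, a change of 2.67 ± 0.20 (adjusted p = 0.000151). LGR4, a receptor for R-spondins, fell by 3.10 ± 0.39 (adjusted p = 0.0019) and the secreted antagonists DKK3 and SFRP1 by 2.05 ± 0.24 (adjusted p = 0.00122) and 1.76 ± 0.31 (adjusted p = 0.00897), the last lost without DU145 replicate 2 (adjusted p = 0.0674). Of 5 DKK3 probe sets 4 had this sign. Other probe sets gave 0.05 and -0.14 for LEF1 and -0.05, 0.12 and 1.22 for JAG1. Counts with 1 array less included 2 falls of Notch genes without DU145-DR replicate 2, 1 rise of Wnt genes without DU145 replicate 1 and 2 falls without DU145 replicate 2.

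Part of the interferon-induced and antigen presentation genes fell in DU145-DR cells, with 0 rises in either list by limma without the block. Of 53 interferon-induced genes 17 fell (2 and 22 with the replicate block, 2 and 19 with the 3 pairs), beside 5.48% of all genes, with a median change of -0.28, and -0.999 on the third pair. Their list was chosen with earlier results of these data known. At an unadjusted p under 0.05, 2 were higher and 22 lower, and 8 of the 17 calls were kept without each array. IFITM3, a membrane protein that restricts virus entry, read 3692 and 4153 in parental and 372 and 228 in resistant replicates 1 and 2, and 8422 and 79.9 in the 2 arrays of replicate 3. All resistant arrays were far below the parental ones, and IFITM3 changed by -3.68 ± 0.25 (adjusted p = 8.55e-05) and IFITM2 by -2.94 ± 0.26 (adjusted p = 0.000357). Probe sets of both are prone to cross-hybridization between IFITM genes. PARP12 fell by 1.74 ± 0.21 (adjusted p = 0.00154) and GBP1, a GTPase, by 2.27 ± 0.45 (adjusted p = 0.0146). The counts shifted to 8 falls of interferon-induced genes without DU145 replicate 2.

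In class I antigen presentation 8 of 22 genes fell (15 with the replicate block; median change -0.57, and -0.78 on the third pair), and at an unadjusted p under 0.05 12 were lower and 0 higher. PSMB9, a catalytic subunit of the immunoproteasome, read 2647 and 3397 in parental and 129 and 324 in resistant replicates 1 and 2, and 1541 and 56.1 in the 2 arrays of replicate 3. Its resistant reading was far below the parental one in each replicate, and the change was -3.76 ± 0.36 (adjusted p = 0.000442). On the resistant array of replicate 2 it stayed above the array median of 184. PSMB8, PSME1 and TAP1 changed by -2.20, -2.08 and -1.62, and TAP2, ERAP2, HLA-E and MICB fell too. Of chemokines, cytokines and NF-kappaB genes 3 rose and 13 fell of 68 tested (14 and 21 with the replicate block). LCN2, an iron-scavenging lipocalin, changed by -2.88 ± 0.18 (adjusted p = 5.14e-05) and ICAM1, an adhesion molecule for leukocytes, by -2.65 ± 0.24 (adjusted p = 0.000376). CXCL6 changed by -2.24 ± 0.21 (adjusted p = 0.000455). The rises were CXCR4, CXCL8 and CXCL3. CXCR4, a chemokine receptor, changed by 2.22 ± 0.21 (adjusted p = 0.0004) but went from 826 to 375 in replicate 3. KYNU, kynureninase of tryptophan breakdown, fell by 4.22 ± 0.17 (adjusted p = 7.74e-06). Leaving single arrays out changed these counts to 5 falls of class I genes without DU145 replicate 2, 7 rises of cytokine and NF-kappaB genes without DU145-DR replicate 1, 11 rises without DU145-DR replicate 2 and 5 falls without DU145 replicate 2.

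**Figure D4:**
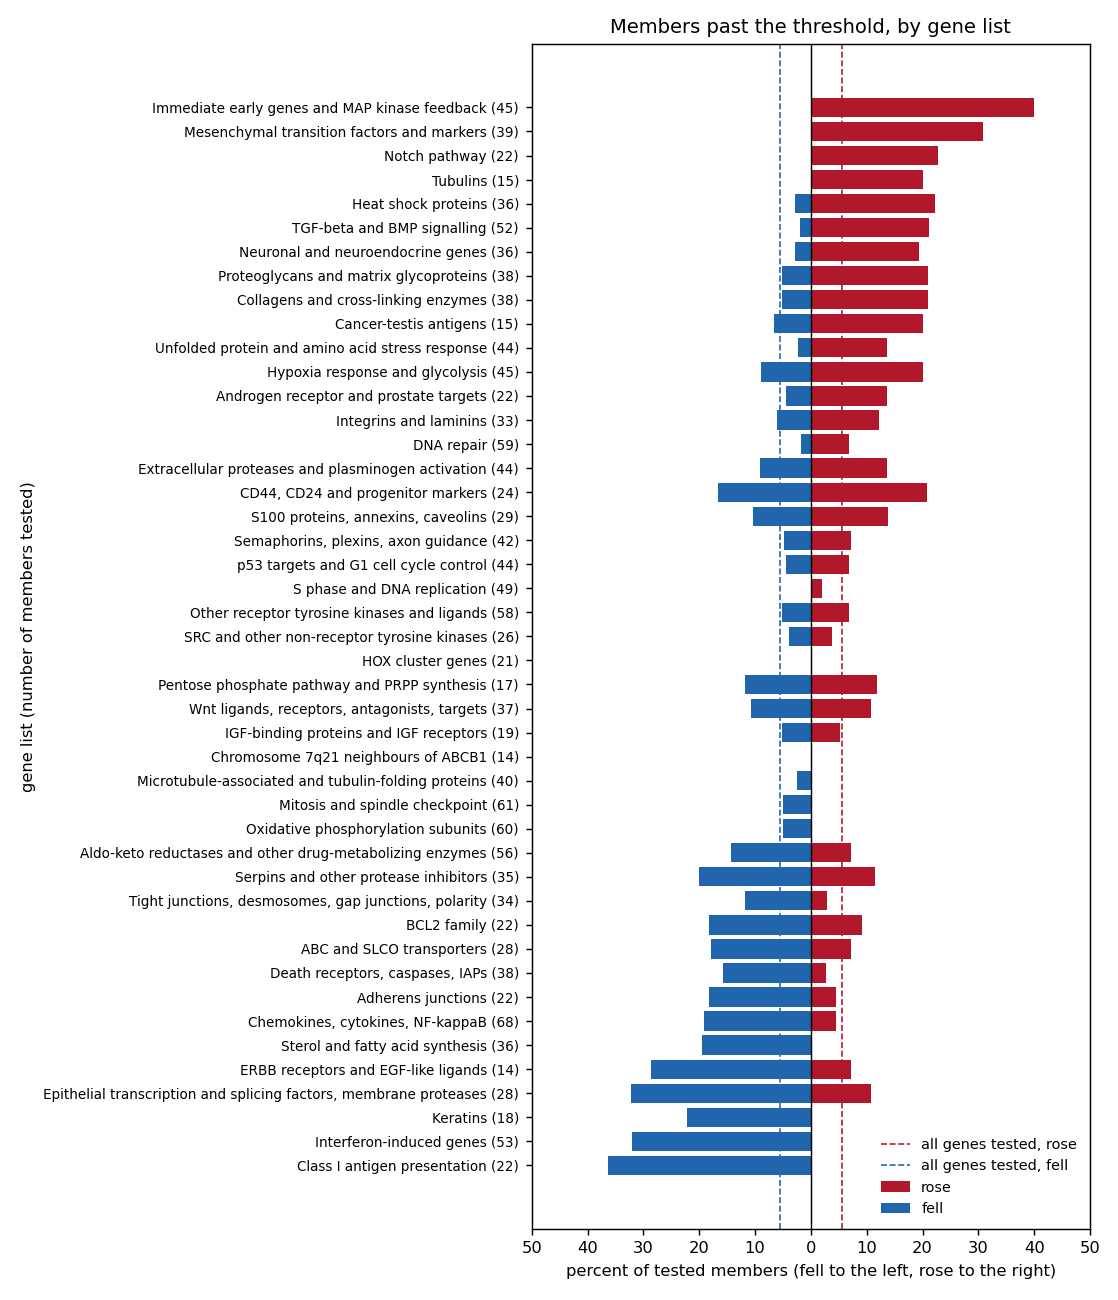
Bars give, for each gene list with at least 10 tested members, marker lists of cell types not shown, the percent of members that rose (red, right) or fell (blue, left) in DU145-DR past the threshold, and dashed lines give the same over all genes tested, 5.53% and 5.48%. Among the lists shown, immediate early and mesenchymal genes reach farthest right (the latter at 30.8%), and class I farthest left (36.4%), followed by epithelial factors and interferon-induced genes. Lists and members were chosen with earlier results of these data known, and no list was tested against the dashed lines.

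Of all lists, immediate early genes and feedback inhibitors of MAP kinase had the most rises, 18 of 45, with 0 falls by limma (24 and 1 with the replicate block; 24 higher and 1 lower at an unadjusted p under 0.05; median change 0.64, and 0.73 on the third pair). SGK1, a kinase induced by stress and steroids, read 781 and 838 in parental and 8079 and 3350.1 in resistant replicates 1 and 2, and 317 and 4804 in the 2 arrays of replicate 3. DUSP4, a phosphatase of MAP kinases, read 455 and 491 in parental and 2574 and 1978 in resistant replicates 1 and 2, and 653 and 2684 in the 2 arrays of replicate 3. Both were higher on all resistant arrays, and changed by 2.66 ± 0.36 (adjusted p = 0.00269) and 2.22 ± 0.20 (adjusted p = 0.000366). DUSP10 changed by 2.22 ± 0.20 (adjusted p = 0.000366) and ATF3, a stress-induced factor, by 2.09 ± 0.20 (adjusted p = 0.000442). MYC changed by 1.20 ± 0.19 (adjusted p = 0.0059), and by 0.10 on the third pair. Fits on 1 array fewer gave 11 rises of immediate early genes without DU145 replicate 1.

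Some of these genes went the other way on the third pair. EGR1 read 452 and 568 in parental and 1379.6 and 1965 in resistant replicates 1 and 2, and 1585 and 458 in the 2 arrays of replicate 3. FOS read 109 and 69.1 in parental and 393 and 236 in resistant replicates 1 and 2, and 187 and 50.2 in the 2 arrays of replicate 3. Resistant cells read higher in replicates 1 and 2 and lower in replicate 3. The changes were 1.67 ± 0.22 (adjusted p = 0.00248) and 1.64 ± 0.28 (adjusted p = 0.00769), the latter lost without DU145 replicate 2 (adjusted p = 0.0562), against -1.75 and -1.62 on the third pair. Together with ABCA1 they belong to the 5 called genes most opposite on the third pair, whose other members are AKR1B10 and MARCKS. AKR1B10, a reductase, gave 1.40 ± 0.28 (adjusted p = 0.0156), a call lost without DU145 replicate 2 (adjusted p = 0.0946), and -2.10 on the third pair. MARCKS, a membrane-bound kinase substrate, gave 0.94 ± 0.25 (adjusted p = 0.0477) and -2.01 on the third pair. Its call was lost without each of the 8 arrays but DU145 replicate 2 (adjusted p from 0.0718 to 0.196), and with all 3 pairs its change was -0.04.

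Part of the stress genes rose. Of 36 heat shock genes 8 rose and 1 fell (13 and 3 with the replicate block), 2 of these calls being kept without each array. HSPB8, a small chaperone, went from 68.6 to 781 in replicate 1, from 73 to 452 in replicate 2 and from 95.7 to 343 in replicate 3 and changed by 2.82 ± 0.28 (adjusted p = 0.000497), and DNAJC15 changed by -1.95 ± 0.17 (adjusted p = 0.000357). In the unfolded protein and amino acid stress list 6 rose and 1 fell of 44 tested (13 and 7 with the replicate block), with EIF2AK3, the kinase PERK, at 1.48 ± 0.23 (adjusted p = 0.00558) and SLC7A11, the cystine transporter, at 1.36 ± 0.19 (adjusted p = 0.00314). Of hypoxia and glycolysis genes 9 rose and 4 fell of 45 tested (13 and 11 with the replicate block). ADM, adrenomedullin, changed by 2.51 ± 0.19 (adjusted p = 0.000157) and ANGPTL4 by 2.56 ± 0.28 (adjusted p = 0.000949). STC1, a secreted glycoprotein, fell from 1067 to 62.2 in replicate 1, from 996 to 73.5 in replicate 2 and from 267 to 16.6 in replicate 3, a change of -3.65 ± 0.19 (adjusted p = 2.07e-05), while its change in 22Rv1-DR was 4.56 (adjusted p = 1.13e-05). Leaving out 1 array gave 1 rise of heat shock genes without DU145 replicate 1, 5 rises without DU145-DR replicate 2, 3 falls without DU145-DR replicate 2, 3 rises of the amino acid stress list without DU145 replicate 1, 9 falls without DU145-DR replicate 2, 4 rises of hypoxia genes without DU145 replicate 1 and 1 fall without DU145 replicate 2.

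Some genes better known from neurons changed strongly. Of 36 neuronal and neuroendocrine genes 7 rose and 1 fell (9 and 5 with the replicate block). SCG5, a secretory granule chaperone, read 59.3 and 49.9 in parental and 2019.8 and 809 in resistant replicates 1 and 2, and 24.9 and 861 in the 2 arrays of replicate 3. NEFL, the light neurofilament, read 90.5 and 83.3 in parental and 867 and 1209 in resistant replicates 1 and 2, and 52.3 and 584 in the 2 arrays of replicate 3. Both were low on all parental and high on all resistant arrays, with changes of 4.20 ± 0.36 (adjusted p = 0.00032) and 3.34 ± 0.21 (adjusted p = 5.14e-05). RTN1, an endoplasmic reticulum protein of neurons, changed by 3.89 ± 0.43 (adjusted p = 0.000927), and NEFM, PRNP, SYT11 and INA also rose. BCHE, butyrylcholinesterase, the largest fall of all, read 4640.3 and 6889 in parental and 45.6 and 31.1 in resistant replicates 1 and 2, and 4771 and 11.6 in the 2 arrays of replicate 3. Its resistant readings were at the floor of both array types, so -6.72 ± 0.25 (adjusted p = 7.74e-06) is a lower limit of the fall. ROBO1, a receptor of axon guidance, rose by 3.65 ± 0.26 (adjusted p = 0.000127) and NRCAM, an adhesion molecule, by 2.48 ± 0.22 (adjusted p = 0.000366), and LMO3, a neuronal LIM protein, fell by 4.59 ± 0.25 (adjusted p = 2.61e-05). With 1 array left out there were 3 rises of neuronal genes without DU145 replicate 1 and 4 rises without DU145 replicate 2.

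TKTL1, a transketolase-like gene, read 55.7 and 49.2 in parental and 1722 and 4871 in resistant replicates 1 and 2, and 14.9 and 955 in the 2 arrays of replicate 3. Parental readings were near the floor on every array and resistant ones high on every array, and the change was 5.41 ± 0.41 (adjusted p = 0.000151). In its list of pentose phosphate and PRPP synthesis genes 2 rose and 2 fell of 17 tested (3 and 4 with the replicate block). The falls were PSPH and PSAT1, listed with these genes but enzymes of serine synthesis. Both calls were lost without each of the 8 arrays but DU145-DR replicate 2. PGD, of the pentose phosphate pathway, gave 0.85 ± 0.20 (adjusted p = 0.0319), a call lost without each of the 8 arrays but DU145-DR replicate 2. On the third pair PGD gave 0.17, and it did not pass with the 3 pairs together (adjusted p = 0.101). Other members of the largest changes were GLIPR1 at 3.48 ± 0.28 (adjusted p = 0.000241), ADGRG2, an adhesion G protein-coupled receptor, at -3.84 ± 0.18 (adjusted p = 1.29e-05) and ATP10A, a lipid flippase, at -3.76 ± 0.22 (adjusted p = 4.64e-05). PTX3, a soluble pattern recognition protein, went from 92.4 to 592 in replicate 1, from 127 to 4096 in replicate 2 and from 13.8 to 186 in replicate 3, a change of 3.67 ± 0.70 (adjusted p = 0.0131) that was largest in replicate 2. Single arrays moved these counts, to 0 falls of the pentose phosphate list without DU145 replicate 1 or DU145 replicate 2 or DU145-DR replicate 1 and 5 falls without DU145-DR replicate 2.

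Enzymes of drug and steroid metabolism fell more often than they rose: 4 rose and 8 fell of 56 tested (6 and 18 with the replicate block). AKR1C3, which reduces steroids and prostaglandins, read 317 and 347 in parental and 5185 and 6339 in resistant replicates 1 and 2, and 2226 and 2759 in the 2 arrays of replicate 3. AKR1C2, its close relative, read 214 and 201 in parental and 1428 and 2740.1 in resistant replicates 1 and 2, and 781 and 1438 in the 2 arrays of replicate 3. In replicates 1 and 2 resistant arrays were well above parental ones, while in replicate 3 parental readings were high as well. The changes were 4.05 ± 0.19 (adjusted p = 1.29e-05) and 3.16 ± 0.29 (adjusted p = 0.000366), against 0.31 and 0.87 on the third pair, and near-identical AKR1C genes may share signal. ALDH1A3, which makes retinoic acid, fell by 2.50 ± 0.24 (adjusted p = 0.000484) and ALDH2 by 1.80 ± 0.29 (adjusted p = 0.00607), the latter lost without DU145 replicate 2 (adjusted p = 0.0516). Of sterol and fatty acid synthesis genes 0 rose and 7 fell of 36 by limma (4 and 16 with the replicate block; 3 higher and 12 lower at an unadjusted p under 0.05). ELOVL2, an elongase of polyunsaturated fatty acids, went from 1687 to 161 in replicate 1, from 1820.3 to 123 in replicate 2 and from 269 to 27.5 in replicate 3, a change of -3.50 ± 0.19 (adjusted p = 2.66e-05). These counts became 2 rises of drug enzymes without DU145 replicate 2, 4 falls without DU145 replicate 1, 3 falls without DU145 replicate 2, 3 falls of sterol and fatty acid genes without DU145 replicate 1 or DU145 replicate 2, 4 falls without DU145-DR replicate 1 and 11 falls without DU145-DR replicate 2.

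Surface antigens used to mark progenitor-like cells went opposite ways. CD44, the hyaluronan receptor, read 2628 and 3327 in parental and 11268 and 10441 in resistant replicates 1 and 2, and 2610.3 and 10441 in the 2 arrays of replicate 3. CD24, a small glycosylated surface protein, read 3236 and 3822 in parental and 375 and 76.6 in resistant replicates 1 and 2, and 2702 and 95 in the 2 arrays of replicate 3. CD44 was high on all arrays and higher on the resistant ones, and CD24 was lower on all resistant arrays, least so in replicate 1. The changes were 1.87 ± 0.19 (adjusted p = 0.000632) and -4.21 ± 0.56 (adjusted p = 0.00239). Over the list 5 rose and 4 fell of 24 tested. MCAM, an adhesion molecule, rose by 1.91 ± 0.37 (adjusted p = 0.0134) from a probe set prone to cross-hybridization, a call lost without DU145 replicate 2 (adjusted p = 0.0872). Counts with 1 array less included 3 rises of progenitor markers without DU145 replicate 1 or DU145 replicate 2.

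Cell death genes fell more often than they rose. In the BCL2 family 2 rose and 4 fell of 22 tested, and of death receptors, caspases and inhibitors of apoptosis 1 rose and 6 fell of 38 tested (3 and 13 with the replicate block). BCL2L1, which encodes the antiapoptotic BCL-XL, went from 1089.9 to 338 in replicate 1, from 1278 to 465 in replicate 2 and from 653 to 410.1 in replicate 3, a change of -1.54 ± 0.25 (adjusted p = 0.00624). BCL2A1, a related protein, read 596 and 820.3 in parental and 288 and 50.2 in resistant replicates 1 and 2, and 103 and 86.2 in the 2 arrays of replicate 3. It was lowest on the resistant array of replicate 2 and barely lower in replicate 3, and its change of -2.33 ± 0.58 (adjusted p = 0.0353) was lost without each of the 8 arrays but DU145-DR replicate 1 and DU145-DR replicate 2 (adjusted p from 0.0513 to 0.185). DAPK1, a death-associated kinase, changed by -2.48 ± 0.21 (adjusted p = 0.000311), and by -4.80 on the third pair. FAS gave -0.99 ± 0.25 (adjusted p = 0.0384), a call lost without each of the 8 arrays but DU145-DR replicate 1 (adjusted p from 0.0665 to 0.148). The counts shifted to 1 fall in the BCL2 family without DU145 replicate 2 and 2 falls of death receptor genes without DU145 replicate 1 or DU145 replicate 2.

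Calls in other lists went both ways. Of S100 proteins, annexins and caveolins 4 rose and 3 fell of 29 tested (7 and 4 with the replicate block). ANXA3, an annexin, went from 4299.6 to 391 in replicate 1, from 4240.4 to 455 in replicate 2 and from 4771 to 47.2 in replicate 3, lower on each resistant array, a change of -3.29 ± 0.25 (adjusted p = 0.000151). Of semaphorins, plexins and axon guidance genes 3 rose and 2 fell of 42 tested (5 and 7 with the replicate block), with ROBO1 and NRCAM as the largest rises. These are 7.14% and 4.76%, beside 5.53% and 5.48% of all genes tested. The list of cancer-testis antigens, a class that most tissues other than testis keep silent, gave 3 rises and 1 fall of 15 (3 and 3 with the replicate block). With the 3 pairs together 0 rose and 1 fell. The rises MAGEH1 and MAGED2 were not silent in parental replicates 1 and 2, at 530 and 699 and at 734 and 798. They changed by 0.80 and 0.74 (adjusted p = 0.0347 and 0.0298), and by 0.23 and -0.26 on the third pair. Their calls were lost without 6 and 7 of the 8 arrays in turn. MAGEB2 went from 88.6 to 377 in replicate 1, from 53.8 to 885 in replicate 2 and from 17.9 to 17 in replicate 3. It was higher in resistant replicates 1 and 2 and at or near the floor on both arrays of replicate 3, and its change was 2.80 ± 0.37 (adjusted p = 0.00224). BRDT, a bromodomain gene, changed by -1.92 ± 0.18 (adjusted p = 0.00039). In oxidative phosphorylation 0 rose and 3 fell of 60 tested (6 and 18 with the replicate block). In DNA repair 4 rose and 1 fell of 59 tested (15 and 8 with the replicate block). Falls were 5% of the former, beside 5.48% of all genes, and rises 6.78% of the latter, beside 5.53%. HOX cluster genes gave 0 calls of 21 by limma without the block, with 1 higher and 4 lower at an unadjusted p under 0.05, while with the replicate block 1 rose and 6 fell. Among long noncoding RNAs HCP5, from the HLA region, fell from 307 to 58.9 in replicate 1, from 498 to 61 in replicate 2 and from 182 to 15.8 in replicate 3, a change of -2.42 ± 0.24 (adjusted p = 0.000524). Leaving single arrays out changed these counts to 0 rises of the S100 list without DU145 replicate 1 or DU145 replicate 2, 2 rises without DU145-DR replicate 1, 5 falls of axon guidance genes without DU145-DR replicate 2, 1 rise of cancer-testis antigens without DU145 replicate 1, 0 falls in oxidative phosphorylation without DU145 replicate 1 or DU145 replicate 2, 1 fall without DU145-DR replicate 1, 15 falls without DU145-DR replicate 2, 0 rises in DNA repair without DU145 replicate 1, 2 rises without DU145 replicate 2 or DU145-DR replicate 2, 7 rises without DU145-DR replicate 1 and 3 falls without DU145-DR replicate 2.

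Proliferation genes differed between the tested change and the third pair, whose replicate and array type cannot be told apart. The median of 49 S phase and replication genes was 0.08 in the tested change and 1.05 on the third pair, and that of 61 mitosis and spindle genes -0.24 and 0.29. Of the S phase genes 1 rose and 0 fell by limma (9 and 8 with the replicate block; 2 higher and 4 lower at an unadjusted p under 0.05). TOP2A, a topoisomerase of dividing cells, went from 8780.0 to 2978 in replicate 1, from 11036 to 5221 in replicate 2 and from 3421 to 2304 in replicate 3. It was lower in all 3 pairs, and its change of -1.32 ± 0.27 (adjusted p = 0.0186) was lost without either DU145 replicate 1 or DU145 replicate 2 (adjusted p = 0.0598 and 0.111). BUB1 and MKI67 fell as well, as 2 of 3 falls in mitosis with 0 rises (13 and 3 with the block). These falls are 4.92% of the 61, beside 5.48% of all genes tested. Neither BUB1 nor MKI67 passed with the 3 pairs together (adjusted p = 0.0687 and 0.0649). The call of BUB1 was lost without either DU145 replicate 1 or DU145 replicate 2, and that of MKI67 without 5 of the 8 arrays in turn. Of 4 MKI67 probe sets 3 had this sign. CDKN1A, the cell cycle inhibitor p21, gave 0.85 ± 0.27 (adjusted p = 0.0876) and CDKN2A -0.82 ± 0.36 (adjusted p = 0.202), and both passed with the replicate block (adjusted p = 0.0434 and 0.0266). Fits on 1 array fewer gave 7 falls of S phase genes without DU145-DR replicate 2, 3 rises of mitosis genes without DU145-DR replicate 1, 0 falls without DU145 replicate 1 or DU145 replicate 2 and 25 falls without DU145-DR replicate 2.

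Replicate 2 differed from replicate 1 for some genes apart from the ABCB1 region. The 5 called genes whose pairs 1 and 2 differed most were KRT7, BCL2A1, S100A4, PLAC8 and PTX3. PLAC8, a gene of leukocytes and invasive carcinoma, read 153 and 171 in parental and 644 and 3795 in resistant replicates 1 and 2, and 36 and 175 in the 2 arrays of replicate 3. Like S100A4 and PTX3 it was highest on the resistant array of replicate 2, and its change of 3.15 ± 0.64 (adjusted p = 0.017) was lost without either DU145 replicate 1 or DU145 replicate 2 (adjusted p = 0.106 and 0.0916).

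On the larger array, 3082 genes not on the other type were bright, and with 1 array per group there is no test. Of these, 315 (10.2%) were at least 1 higher and 372 (12.1%) at least 1 lower in DU145-DR. After DMTF1-AS1 and ELAPOR2, the largest rise was MIR100HG, a noncoding RNA that hosts microRNAs, at 62.2 and 1060.1 on the parental and resistant arrays. EID3, IRX3, OSBPL6, DLX1, E2F7, BMPER and KRABD1 followed, with differences from 3.26 to 2.88. E2F7, a repressor of the cell cycle, went from 67.6 to 653. After SFTA3 the largest falls were those of MAL2, a protein of apical transport in epithelia, at 1361 and 12.6, FAM83A at 3566 and 66.7 and SUSD2 at 1585 and 27.5. CFAP251, SFMBT2, EXOC4, TMEM98, SDR16C5 and DMKN followed, with differences from -4.86 to -3.96. Resistant readings of the named falls lay between 11.1 and 66.7, and 22Rv1 cells kept MAL2, at 3281 and 5043 on its parental and resistant arrays.

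MIR100HG spans 3 microRNA genes on the minus strand of chromosome 11 (RefSeq, GRCh38.p14), whose mature 5p sequences are shown since this transcript is their host. The microRNAs themselves were not measured. Capitals mark the seed, bases 2 to 8, which differs between the 3.
hsa-miR-100-5p: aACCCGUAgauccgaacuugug
hsa-let-7a-5p: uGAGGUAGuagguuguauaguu
hsa-miR-125b-5p: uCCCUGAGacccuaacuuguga
They lie at chr11:122152275-122152296, chr11:122146568-122146589 and chr11:122099809-122099830.

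Changed genes were unevenly divided between chromosomes. On chromosome 14, 6 genes rose and 54 fell of 331 tested, with a median difference of -0.26, -0.31 and -0.37 in the 3 pairs. NKX2-1, FOXA1, PSME1, PALS1 and SERPINA1 are among its falls and NID2 and RTN1 among its rises. Chromosome 12 gave 12 rises and 53 falls of 553, and chromosome 15 gave 4 and 30 of 302. In the other direction, on the X chromosome 23 rose and 1 fell of 335, the fall being ADGRG2, and on chromosome 5 44 rose and 7 fell of 415. With the replicate block these counts were 15 and 143 for chromosome 14, 33 and 178 for 12, 16 and 106 for 15, 80 and 27 for X and 136 and 33 for 5. Single arrays moved the counts: without DU145 replicate 1 there were 28 falls on chromosome 14, 17 rises on 5 and 9 on X, and without DU145 replicate 2 there were 18 falls on chromosome 14, 20 on 12, 17 on 15 and 15 rises on X. Without DU145-DR replicate 2 there were 82 falls on chromosome 14, 99 on 12 and 55 on 15, and without any 1 of the 22Rv1 or 22Rv1-DR arrays 35 falls on 12 and 15 rises on X. In 22Rv1-DR the median change was 0.01 on chromosome 14 and 0.02 on chromosome 12. Karyotype was not measured.

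**Figure D5:**
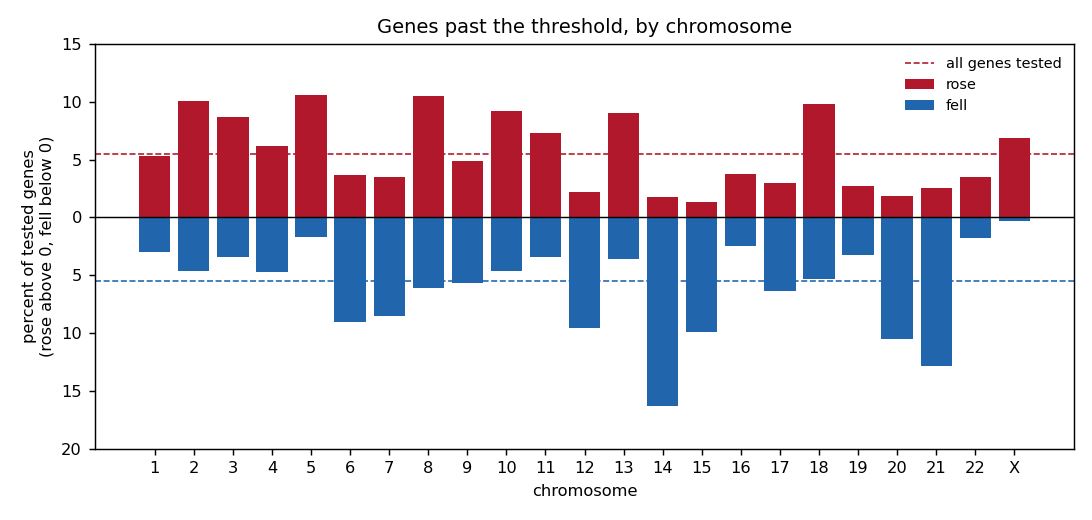
Bars give the percent of tested genes on each chromosome that rose (red, above 0) or fell (blue, below 0) in DU145-DR past the threshold, and dashed lines the same over all genes. Falls reach 16.3% on chromosome 14 and 0.299% on X, and rises reach 10.6% on chromosome 5.

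Many changes differed from those of the same genes in 22Rv1-DR. The difference between the lines, tested with limma, passed for 777 of the 9713 genes (8.0%), for 470 of the 1069 and for 24 of the 30 genes chosen by size and like pairs. ABCB1 rose in both (difference, 22Rv1 change minus DU145 change, 1.75, adjusted p = 0.197), and so did IGFBP3 (0.08, adjusted p = 0.974), while KRT19 fell in both (-0.13, adjusted p = 0.97). CDH1 fell in both as well, by -3.38 in 22Rv1-DR (adjusted p = 0.000116), though its difference passed. A p over the threshold does not show that the lines changed alike, and a p under it does not show a change in DU145-DR alone. The 22Rv1 arrays of this table read lower at the bottom, with a 25th percentile of 19.6 to 20.4 against 62.2 to 76.1, and the part of this gap in the differences was not tested.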

How the data were processed

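Arrays were grouped by their labels. The authors deposited linear probe-set intensities, made with MAS5 and RMA per the submitters' processing notes, with the role of each not given. On log2(intensity + 16), limma 3.58.1 in R 4.3.3 fitted the 4 groups of the 8 arrays of replicates 1 and 2 without a block, over 9713 genes with 1 probe set each (the brightest, avoiding cross-hybridizing sets where possible). Genes whose highest group mean was under the 40th percentile (an intensity of 74.0) and Y-linked genes and XIST were left out. For some named genes a probe set not used had the opposite sign, among them ABCA1, ABCC1, ADAM12, ADAM19, HBEGF, JAG1, LEF1, MARCKS and SERPINA1. Same-numbered arrays deviated together (correlations 0.693 and 0.792), so a blocked fit is given beside named genes whose call it changes and list counts it moves by over 1.5 times. Members and lists were chosen with earlier results of these data known. Named genes are the 15 largest rises and falls without overlap and with a like replicate 3, up to 4 called members per list, a fixed set, the 10 largest each way on the larger array alone, and the 5 called genes with the most opposite replicate 3 or most unlike pairs. Alternatives varied the block, the arrays fitted, pseudocount, filter, normalization and probe sets. The fitting code was tested on simulated data.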

Additional observations from a re-analysis of the deposited data

Results flagged for a closer look

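The difference between the lines, the change in 22Rv1-DR minus the change in DU145-DR, passed in limma (adjusted p under 0.05) for 29 of the genes named by size or in the fixed set. It was below 0 for 13 genes that were higher in DU145-DR: -5.43 for COL4A5, -5.35 for TKTL1, -5.31 for SNAI2, -2.92 for FSTL1, -5.32 for SDC2, -4.27 for SCG5, -6.99 for SPOCK1, -2.53 for ROBO1, -3.74 for NID2, -2.88 for GHR, -3.40 for GLIPR1, -6.09 for CD44 and -1.66 for VIM. It was above 0 for 16 genes that were lower in DU145-DR: 6.60 for BCHE, 5.75 for EREG, 2.35 for CDH1, 4.84 for SPINT2, 5.96 for LMO3, 4.14 for CDH3, 4.40 for KYNU, 3.71 for NKX2-1, 3.45 for MTUS1, 3.86 for ADGRG2, 3.55 for PSMB9, 3.86 for ATP10A, 3.70 for SCEL, 2.90 for ABCG2, 2.39 for EPCAM and 1.42 for EGFR. In 22Rv1-DR, CDH1 (-3.38, adjusted p = 0.000116), FSTL1 (1.60, adjusted p = 0.00293) and ROBO1 (1.11, adjusted p = 0.047) passed in the same direction as in DU145-DR. SPOCK1, LMO3, CD44, VIM and ABCG2 passed there in the opposite direction. No cause was tested.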

How the results depend on the processing

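The count of 1069 genes, 537 higher and 532 lower, moved with the arrays and the model fitted. With the replicate block it was 3445 (1802 higher, 1643 lower), with only the 4 DU145 and DU145-DR arrays 292 (133 and 159), and with all 12 arrays of both types and the array type as a block 462 (186 and 276). Quantile normalization gave 803 falls. Leaving out 1 array in turn gave 489 to 1523 genes, 179 to 631 higher and 215 to 968 lower. The lowest totals were without DU145 replicate 1 (489, of which 179 higher and 310 lower) and without DU145 replicate 2 (523, of which 308 higher and 215 lower), falls reached 968 without DU145-DR replicate 2, and rises were 348 or 349 without any 1 of the 22Rv1 or 22Rv1-DR arrays. Of the other values, of single genes and of lists, 3723 kept direction and side of the threshold or stayed within 1.5 times, 291 list counts moved further, 414 gene calls were lost, 16 gained and 2 reversed. The reversals were both of MARCKS, at -0.043 in each fit over both array types, and the cause was not tested. With 8 arrays and 4 groups, 4 residual degrees of freedom were left (2 with the block). Readings near the floor limit falls of dim genes.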
